A study of Mus musculus with 2 samples.

Results

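Gastruloids are aggregates of mouse embryonic stem cells that begin to form the body axis in culture. At day 2.5, 61 of 19294 cells (34 of 8707 labelled wild type and 27 of 10587 labelled double knockout) still held transcripts of at least 4 of 6 genes that mark naive stem cells. The 6 genes are Dppa3, Dppa5a, Zfp42, Rhox6, Rhox9 and Lncenc1, and a cell was taken when it had at least 1 unique molecular identifier (UMI, a tag that counts each captured RNA molecule once) for 4 or more of them. These are called marker-positive cells below, since the other naive markers fitted the name only in part. Both libraries came from the R1 line of embryonic stem cells. In the first the cells were wild type. In the second they were labelled as double mutants for Sp5 and Sp8, which encode zinc-finger transcription factors that act in the Wnt pathway. About 300 cells per aggregate were grown in N2B27, a serum-free medium, and given 3 µM CHIR, an inhibitor of GSK3 that turns on Wnt signalling, 12 hours before collection. The aggregates of a genotype were pooled, so each genotype has 1 library and no replicate, and no difference between genotypes could be tested. How many clones the mutant line stands for is not given in the sources used here.

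Naive pluripotency is the state of the inner cell mass and of stem cells before they prepare for lineage choice. It is held by a network of transcription factors that includes Esrrb, Klf2, Klf4, Klf5, Tfcp2l1, Tbx3 and Nanog, and it goes with low DNA methylation. When cells leave it, they pass through a formative state marked by Otx2, Pou3f1, Fgf5 and Dnmt3b, and gastruloids then switch on primitive streak genes such as T and Eomes. Dppa3 encodes Stella, which limits DNA methylation in the germline and early embryo. Zfp42 encodes Rex1, a zinc-finger protein used as a reporter of the naive state, and Dppa5a encodes a small RNA-binding protein of pluripotent cells. Rhox6 and Rhox9 are homeobox genes of the X-linked Rhox cluster, many members of which are silenced by DNA methylation, and Lncenc1 is a long noncoding RNA of naive stem cells.

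Promoter sequences are shown for the genes of the rule that RefSeq's table for GRCm38.p6 (the mm10 assembly) holds, and for Triml2, which was among the genes highest in marker-positive cells. Triml2 lies 101.2 kb from Zfp42 on chromosome 8, and no protein-coding gene of the GENCODE annotation lies between them. Each run is the 250 bases before the start site on the gene's strand, 5′ to 3′. Capitals mark 3 motifs, searched on both strands: the octamer ATGCAAAT, known from POU factors such as Oct4, the half-site AAGGTCA, known from nuclear receptors such as Esrrb and Nr5a2, and the GC box GGGCGG, known from Sp and Klf factors. The Zfp42 promoter is chr8:43307010-43307259 on the minus strand, that of Triml2 chr8:43180286-43180535 on the plus strand and that of Lncenc1 chr13:97434720-97434969 on the plus strand.
Zfp42: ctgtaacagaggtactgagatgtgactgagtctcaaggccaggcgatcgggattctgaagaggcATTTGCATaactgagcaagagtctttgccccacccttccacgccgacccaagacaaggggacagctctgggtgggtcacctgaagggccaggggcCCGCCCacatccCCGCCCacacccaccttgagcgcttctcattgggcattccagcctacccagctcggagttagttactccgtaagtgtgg
Triml2: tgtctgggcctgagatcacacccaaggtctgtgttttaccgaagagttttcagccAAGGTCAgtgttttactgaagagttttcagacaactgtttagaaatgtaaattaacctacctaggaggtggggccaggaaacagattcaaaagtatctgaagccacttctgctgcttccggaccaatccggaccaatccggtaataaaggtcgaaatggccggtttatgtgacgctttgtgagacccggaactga
Lncenc1: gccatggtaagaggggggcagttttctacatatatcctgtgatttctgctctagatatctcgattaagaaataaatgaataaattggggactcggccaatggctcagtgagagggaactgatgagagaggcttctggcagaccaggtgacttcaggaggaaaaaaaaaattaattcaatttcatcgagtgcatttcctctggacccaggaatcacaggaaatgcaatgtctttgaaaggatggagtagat
The Zfp42 run holds 1 octamer, on the opposite strand and so printed as ATTTGCAT, whose first base lies 186 bases before the start, and 2 GC boxes, also on the opposite strand (CCGCCC). The Triml2 run holds 1 half-site, 195 bases before the start, and the Lncenc1 run holds none of the 3 motifs. Of 32817 promoter windows of this length, 1.60% held the octamer, 4.08% the half-site and 32.7% the GC box. A match to these letters describes the sequence and is not a binding site. Of the 6 rule genes and the 15 highest genes, 13 of 21 had an entry in the table, and 2, 1 and 6 of these 13 held the octamer, the half-site and the GC box in at least 1 of their windows.

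The kept cells held 97157331 and 97644169 UMIs in the libraries labelled wild type and double knockout, with medians of 10571 and 8637 per cell. The libraries shared 27 cell barcodes, against 13.57 for a random draw from the barcodes listed, and none of the 27 belonged to a marker-positive cell. The Sp5 and Sp8 counts went against the label: among the other kept cells Sp5 stood at 109 and 479.7 CPM (UMIs of the gene per 1000000 UMIs in the sum) and Sp8 at 20.8 and 40.2 CPM in the libraries labelled wild type and double knockout. The libraries are therefore named by their labels throughout. Which part of each gene was deleted is not given in the sources used here, and a 3′ tag outside it checks nothing. All values below are sums of UMIs over cells, given as CPM, and the values of the library labelled wild type come first. Intervals are 95% intervals (Clopper-Pearson for shares, exact Poisson for sums and ratios), and cover counting error only.

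Marker-positive cells made up 0.390% (0.271 to 0.545) of kept cells labelled wild type and 0.255% (0.168 to 0.371) of those labelled double knockout. These intervals overlapped, and the log2 ratio of the shares was −0.61. Just below the limit, 133 and 148 cells had exactly 3 of the 6 genes, and just inside it 33 and 26 had exactly 4. A single cell in each library had 5, and none had all 6. Marker-positive cells had medians of 13263 and 9492 UMIs, against 10563 and 8634 in the other cells and 12876 and 11116 in cells with exactly 3 of the genes. With every cell thinned to 2500 UMIs, only 2 and 5 cells passed, and the order of the libraries turned round. A difference in share and a difference in depth between the libraries cannot be told apart here, and the class is a range of a score and not a cell type. Among barcodes with at least 1000 but under 2500 UMIs, 0 of 481 and 1 of 633 had 4 or more of the genes.

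**Figure D1:**
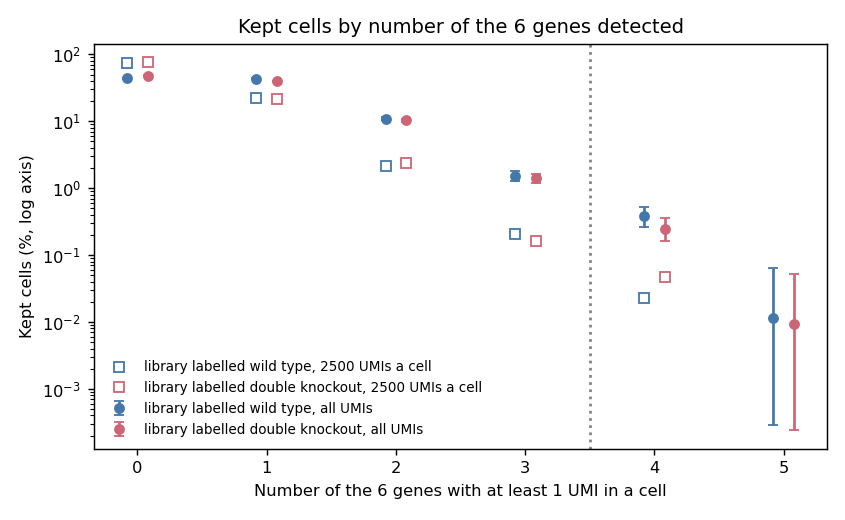
Kept cells (percent, log axis) by the number of the 6 genes with a UMI, in each library. Filled points use all UMIs, with exact binomial 95% intervals, and open squares use 2500 UMIs a cell. The dotted line is the limit of the rule, past which 34 and 27 cells lie with all UMIs and 2 and 5 with 2500.

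The rule itself set the levels of the 6 genes, which are given as a description. Dppa5a had a UMI in all 61 cells, at 1315 and 1397 CPM against 127 and 129 CPM in the other cells. It was not restricted to them: 50.9% and 46.1% of the other cells had a Dppa5a UMI. Zfp42 reached 268 and 254 CPM, and 13.2% and 12.7% of the other cells had a UMI of it. Dppa3 was the most selective gene of the most common combination, at 188 and 261 CPM against 1.04 and 1.85 CPM, with a UMI in 0.819% and 1.21% of the other cells. Lncenc1 stood at 101 and 132 CPM, with a UMI in 4.28% and 3.92% of the other cells. Rhox6 and Rhox9 were rare even among the 61, with UMIs in 13 and 11 of them. Dppa3, Dppa5a, Zfp42 and Lncenc1 together accounted for 39 of the 61 cells. In 12 of the 61 every counted gene other than Dppa5a had a single UMI, while 11 held 5 or more Dppa3 UMIs.

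For comparison, 112 cells with 3 or more of 5 neural genes gave the share of cells with a UMI in another set of cells. There it was 28.1% and 30.4% for Dppa5a, 10.1% and 8.70% for Zfp42 and 4.49% and 0% for Lncenc1. Their median depths were 11318 and 8764 UMIs. In the library labelled wild type, a single neural cell held 30 of the 74 Dppa5a UMIs, and a single one 15 of the 24 Zfp42 UMIs. Irx3 and Meis2, which are among the 5 genes, also led a cluster of 3236 kept cells, so the set need not be purely neural. For Lncenc1, 0 of 23 neural cells labelled double knockout allows a share of up to 13.04% (3 counts of the total). In barcodes of 10 to 100 UMIs, which hold mostly free RNA, Dppa5a stood at 133 and 144 CPM, near its 127 and 129 CPM in the other kept cells, and Dppa3 at 2.53 and 5.90 CPM. Dppa3, Rhox6 and Rhox9 had no UMI in any of the 112. In 25 cells with 4 or more of 7 extraembryonic endoderm genes, Dppa5a was found in 24, Rhox6 in 9 and Dppa3 in none. Neither set held a marker-positive cell.

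Outside the rule, Fam25c, Nr5a2, Spp1, Morc1 and Dnmt3l stood highest over the other cells among genes of at least 10 CPM. Over all 7625 genes with a mean of at least 10 CPM, 203 (2.66%) exceeded the other cells by 2-fold or more in both libraries, 87 (1.14%) lay 2-fold or more below them and 16 (0.21%) were 2-fold or more apart in opposite directions. Where the counting intervals of both libraries also had to lie beyond no change, 141 (1.85%) were higher and 43 (0.564%) lower. The higher counts include the 6 rule genes, and a gene near 0 in the other cells could pass the filter only by being high here. Among the 7479 genes with 10 CPM in the other cells of both libraries, 92 (1.23%) were higher and 131 (1.75%) lower, and the gene lists below are counted over such genes only. With no replicate these counts describe the 2 libraries.

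Fam25c, the highest by the smaller of its ratios among genes of at least 10 CPM outside the rule, had 14 and 9 UMIs in 12 and 8 cells, or 29.6 and 33.1 CPM against 0.383 and 0.544 CPM. Its log2 ratios were 6.30 (5.27 to 7.19) and 5.99 (4.72 to 6.96). Nr5a2, which encodes a nuclear receptor that sustains Oct4 expression, had 14 and 5 UMIs, with log2 ratios of 5.24 and 5.02. Spp1, the gene of osteopontin, stood at 42.3 and 36.8 CPM against 1.47 and 1.38 CPM. Morc1, which silences transposons in the male germline, and Triml2 had log2 ratios of 4.61 and 4.92 and of 3.96 and 4.32. Dnmt3l, the cofactor of the de novo DNA methyltransferases, was the most widely seen of the 15 highest genes, with a UMI in 31 of the 61 cells. Its 44 and 23 UMIs gave 93.0 and 84.6 CPM against 3.63 and 4.07 CPM, and log2 ratios of 4.69 (4.19 to 5.13) and 4.41 (3.70 to 4.98). The intervals of these genes lay above no change in both libraries. The genes were ranked by the smaller of their ratios, so being high in both libraries follows from the choice and supports nothing. All of them were under 10 CPM in the other cells, and so could pass the filter only by being high here.

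The remaining genes among the 15 highest were Gtsf1l, Slc4a5, Hsd17b14, Hsf2bp, Fbxo15, Pecam1, Ifitm3, Zfp981 and Dnah8. Fbxo15, known as a reporter gene of pluripotency, had log2 ratios of 3.35 and 4.34, and Pecam1, a surface protein of naive stem cells, of 3.32 and 4.97. Ifitm3, a membrane protein of early germ cells, stood at 74.0 and 69.9 CPM against 7.94 and 6.21 CPM. Hsf2bp, which acts in meiotic recombination, had log2 ratios of 3.46 and 3.52. Zfp981 belongs to a family of closely similar genes, so the split of its reads among copies is uncertain, as it is for Rhox6 and Rhox9. Detection ranged from 9 of 61 cells for Pecam1 to the 31 of Dnmt3l, so no single gene of the 15 was seen in all marker-positive cells. A UMI of at least 1 of Nr5a2, Fam25c, Spp1, Morc1, Triml2, Dnmt3l, Fbxo15, Esrrb, Tcl1 and Nr0b1 was present in 49 of the 61 and in 1760 of the 19233 other cells. Most of these genes were picked for being high in the same 61 cells, so this contrast follows from the choice and supports nothing.

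**Figure D2:**
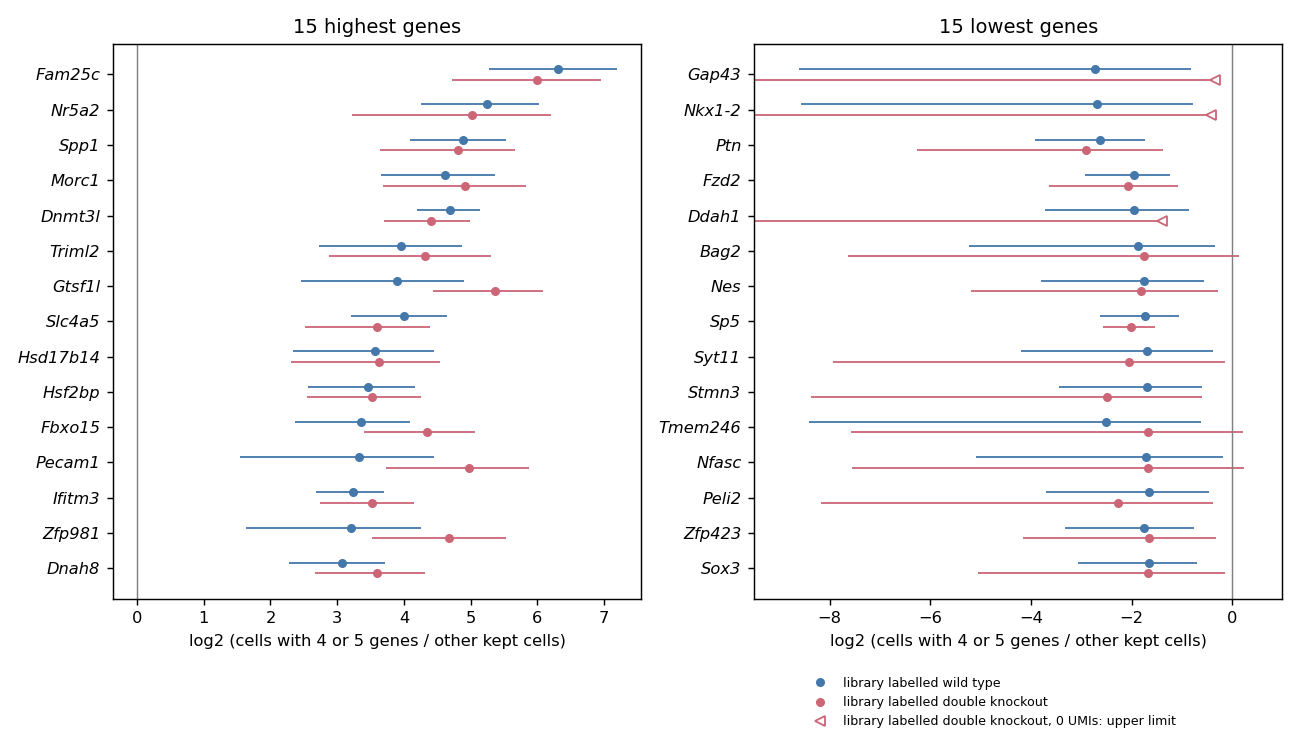
Log2 ratio of marker-positive over other kept cells for the 15 highest and the 15 lowest genes outside the rule, with exact 95% counting intervals (shortened at the left edge of the axis). Open triangles give the upper limit where 27 cells held no UMI. The 15 highest lie above 3 in both libraries, and the intervals of the lowest genes are wide because few UMIs remain.

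Transcription factors of the naive network split. Of the 12 listed, only Klf2, Nanog and Gbx2 had 10 CPM in the other cells of both libraries, and of these 3 Klf2 was 2-fold or more higher in both and none was lower in both. The other 9 were under 10 CPM in the other cells of at least 1 library and are described by their own values. The median log2 ratio of all 12 was 2.81, against 0.07 over all 12593 genes of at least 1 CPM. For the 3 genes with 10 CPM in the other cells the medians were −0.76 and −0.64. The 2.81 thus rests on genes near 0 in the other cells, some of which passed the filter only by being high here. Counting intervals lay above 0 in both libraries for Esrrb, Klf2, Klf5, Tfcp2l1, Nr0b1 and Nr5a2, and reached across 0 in at least 1 library for Tbx3, Prdm14, Stat3 and Klf4. Klf2 had the most UMIs, 92 and 82, giving 194 and 302 CPM against 31.4 and 17.8 CPM and log2 ratios of 2.64 (2.32 to 2.93) and 4.09 (3.75 to 4.41). At 2500 UMIs a cell, 42.6% of the marker-positive and 5.29% of the other cells had a Klf2 UMI. Klf5 had log2 ratios of 2.09 and 3.06, and Tfcp2l1 of 2.02 and 2.17. Esrrb rested on 3 and 4 UMIs, with log2 ratios of 3.69 (1.16 to 5.101) and 4.97 (2.88 to 6.26). Nr0b1 (4.24 and 4.51) and Tbx3 (3.57 and 2.51) were as sparse, and Prdm14 had 0 and 2 UMIs.

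Nanog, which marks both the naive state and the early streak, was lower, at 67.6 and 80.9 CPM against 116 and 129 CPM (log2 ratios of −0.76, −1.33 to −0.29, and −0.64, −1.35 to −0.07). Klf4 had 4 and 0 UMIs, and at this depth no difference was detectable. Gbx2 had 1 and 2 UMIs, or 2.11 and 7.36 CPM against 24.2 and 18.1 CPM, and its interval excluded 0 only in the library labelled wild type. Of the factors with 10 CPM in the other cells, Klf2 alone therefore met the label of naive-like cells. The other factors that were higher lay under that level in the other cells, and some passed the filter only by being high here. Genes of the 2-cell stage had no UMI in any of the 61.

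Of 13 other naive genes, 3 had 10 CPM in the other cells, of which 2 (Tdh and Gdf3) were 2-fold or more higher in both libraries and none lower. The median log2 ratio of the 13 was 2.51, with 10 of them under 10 CPM in the other cells. Tdh, a threonine dehydrogenase on which mouse stem cells depend, was at 372 and 438 CPM against 100 and 97.1 CPM, and Gdf3, a TGF-beta family ligand, at 48.6 and 88.3 CPM against 11.2 and 12.4 CPM. Tcl1, a coactivator of Akt, had 3 and 4 UMIs at 6.34 and 14.7 CPM, against 0.0827 and 0.0822 CPM. The receptor genes for LIF, Lifr and Il6st, had log2 ratios of 0.35 and 1.10 and of 0.81 and −0.24, with intervals that reached across 0, and so did the LIF target Socs3.

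**Figure D3:**
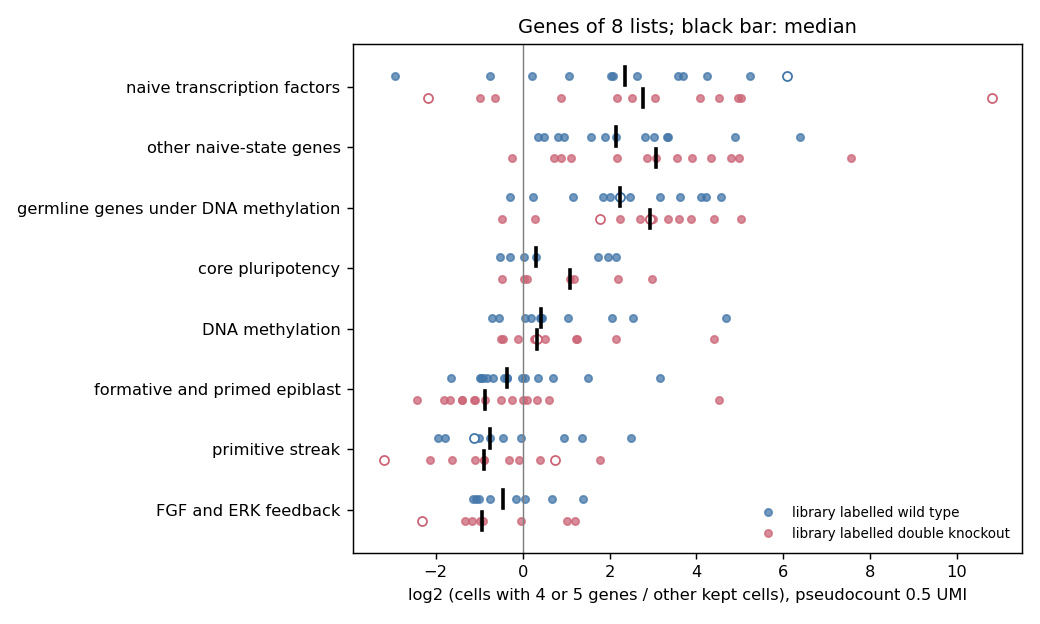
Log2 ratio of marker-positive over other kept cells for each gene of 8 lists with a mean of at least 1 CPM, by library; black bars are medians and open circles are genes with no UMI in a sum, whose position depends on the pseudocount. The naive and germline lists lie mostly above 0, and the formative, streak and FGF lists mostly below. Genes near 0 in the other cells could reach 1 CPM only by being high in marker-positive cells. The side on which the naive and germline lists lie is thus partly set by the filter, which 13 of the 20 germline genes passed.

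Among 20 listed germline genes that are known to be silenced by DNA methylation, 3 had 10 CPM in the other cells. Of these, Rhox5 and Dppa4 were 2-fold or more higher in both libraries and none was lower. Another 6 of the 20 had no UMI in any marker-positive cell. Rhox5, a neighbour of Rhox6 and Rhox9 on the X chromosome, had 214 and 118 UMIs, giving 452 and 434 CPM against 50.3 and 54.2 CPM and log2 ratios of 3.17 (2.96 to 3.36) and 3.01 (2.73 to 3.27). Tex19.1, which protects the germline from transposons, was at 48.6 and 103 CPM against 8.998 and 8.62 CPM. Dppa2 and Dppa4, which act together to keep such promoters open, had log2 ratios of 2.21 and 2.703 and of 2.02 and 2.25. Sycp3, of the synaptonemal complex, did not follow, at 19.02 and 25.7 CPM against 24.7 and 22.5 CPM. In the same cells the de novo methyltransferase gene Dnmt3b was at 828 and 710 CPM against 723 and 770 CPM. It was thus slightly higher in the library labelled wild type (interval of 748 to 915 CPM) and level in the other. Dnmt1 and Uhrf1, which maintain methylation, had log2 ratios of 0.05 and 0.30 and of 0.42 and 0.26. Tet1, which oxidises methylated cytosine, was higher at 156 and 165 CPM against 75.9 and 71.0 CPM. Of the 9 methylation genes with 10 CPM in the other cells, 1 (Tet1) was 2-fold or more higher in both libraries and none lower. Methylation itself was not measured.

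Core pluripotency genes did not move together. Sox2 was at 108 and 188 CPM against 32.8 and 24.2 CPM, and Utf1 at 159 and 243 CPM against 40.7 and 53.2 CPM. Pou5f1, the gene of Oct4, was at 533 and 688 CPM against 657 and 679 CPM, so it was slightly lower in the library labelled wild type and level in the other. Lin28a, which blocks maturation of let-7 microRNAs, was lower, with log2 ratios of −0.52 and −0.47. Tdgf1, the Nodal coreceptor, completed the 3 of 7 that were 2-fold or more higher. Sox2 overlaps the noncoding RNA Sox2ot on the same strand, and their reads may not be separable.

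Formative and primed genes were only partly lower. Their list had a median log2 ratio of −0.46, and 1 of the 14 genes with 10 CPM in the other cells (Sox3) was 2-fold or more lower and none higher in both libraries. Otx2, the factor that drives exit from the naive state, was higher and not lower, at 86.7 and 84.6 CPM against 30.8 and 56.5 CPM, with log2 ratios of 1.51 (1.01 to 1.93) and 0.61 (−0.08 to 1.17). Pou3f1 was at 133 and 91.9 CPM against 83.1 and 75.1 CPM. A single cell held 26 of its 63 UMIs labelled wild type, and another 9 of its 25 labelled double knockout. Fgf5 had log2 ratios of 0.05 and −1.39, of which only the second had an interval that excluded 0. Sox3, a neural and epiblast factor, was at 14.8 and 7.36 CPM against 49.7 and 29.4 CPM. Marker-positive cells as a sum therefore held naive and formative transcripts side by side.

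Among the 15 lowest genes were Sp5 itself, the Wnt receptor gene Fzd2, the caudal factor gene Nkx1-2 and the neural genes Nes, Gap43 and Ptn. Sp5 had log2 ratios of −1.74 (−2.63 to −1.07) and −2.005 (−2.58 to −1.53). Fzd2 was at 27.5 and 22.1 CPM against 111 and 101 CPM. Ptn, a secreted growth factor, was at 16.9 and 7.36 CPM against 110.1 and 68.5 CPM. Nes, an intermediate filament of neural progenitors, had 4 and 2 UMIs, and Nkx1-2 had 1 and 0, in a gene model that overlaps Fgfr2. Of the 8 caudal genes listed, Nkx1-2 alone had 10 CPM in the other cells, Cdx2 had 2 UMIs in each library with intervals across 0, and 4 had no UMI in marker-positive cells. The list did not follow Nkx1-2: the median log2 ratio of its 4 genes of at least 1 CPM was 1.00. It rested on 7 UMIs, and the summed list stood at 6.34 and 14.7 CPM against 32.1 and 26.2 CPM. Primitive streak genes had a median log2 ratio of −0.71 (−0.59 with genes that had no UMI in a sum set to a floor of 3 UMIs), and of 8 with 10 CPM in the other cells 2 (Eomes, and Mixl1 on 1 and 0 UMIs) were 2-fold or more lower in both libraries and 1 (Lefty2) higher. Eomes was at 25.4 and 58.8 CPM against 91.5 and 186 CPM, and Lefty2, an inhibitor of Nodal signalling, at 74.0 and 58.8 CPM against 13.2 and 17.7 CPM. T, the gene of Brachyury, was at 27.5 and 22.1 CPM against 38.8 and 50.8 CPM, a difference whose interval excluded 0 only in the library labelled double knockout.

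Signalling targets were mixed. Of 7 FGF and ERK feedback genes with 10 CPM in the other cells, Etv5 was 2-fold or more higher and Dusp6 2-fold or more lower, the latter on 5 and 2 UMIs with intervals that reached across 0, and the list's median was −0.76 (−0.50 with that floor). Of 5 Wnt targets with 10 CPM in the other cells, none was 2-fold or more higher in both libraries and 1 (Nkd1) was lower. Nkd1, a feedback inhibitor, was at 27.5 and 18.4 CPM against 60.6 and 66.2 CPM, while Axin2 was level at 76.1 and 99.3 CPM against 83.5 and 76.1 CPM. Glycolysis genes were level as a list, with a median of 0.01, though Pfkp and Ldhb had log2 ratios of 2.61 and 3.43 and of 1.12 and 1.20. Stress, cell cycle and cilium lists had medians between −0.07 and 0.28 (−0.07 and 0.46 with that floor), and no gene of them with 10 CPM in the other cells was 2-fold or more apart in both libraries.

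Some genes outside the rule were graded along the number of rule genes in a cell. Dnmt3l went from 1.46 and 1.34 CPM in cells with none of the 6 genes through 3.44 and 4.05, 7.95 and 10.8, and 23.8 and 26.9 CPM in cells with 1, 2 and 3, to 93.0 and 84.6 CPM in marker-positive cells. Rhox5 had the same order at each step in both libraries. Klf2 and Sox2 did not climb at every step. Klf2 stood at 31.5 and 17.8 CPM with no rule gene, 28.3 and 14.7 with 1, 34.4 and 21.8 with 2 and 81.4 and 60.8 with 3. Sox2 was lower with 1 gene (28.6 and 19.9 CPM) than with none (37.6 and 27.2 CPM), and highest in marker-positive cells. Sp5 went the other way, from 116 and 557 CPM with no rule gene to 74.0 and 285 CPM with 3. Of the 141 genes, rule genes included, that were higher with intervals beyond no change, 137 lay above 0 in both libraries in the cells with exactly 3 genes as well, with medians of 1.09 and 1.07 there against 2.00 and 2.18 in marker-positive cells. Of the 43 lower genes, 40 lay below 0. The share of all genes above or below 0 in the cells with exactly 3 genes was not counted. The same 6 genes scored both classes, so these counts are a description and support nothing. Median depth was 9799 and 8071 UMIs with no rule gene and 12876 and 11116 with 3, and then 13263 and 9492 in marker-positive cells, so that at the last step it was lower in the library labelled double knockout. Its part in these levels was not tested.

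**Figure D4:**
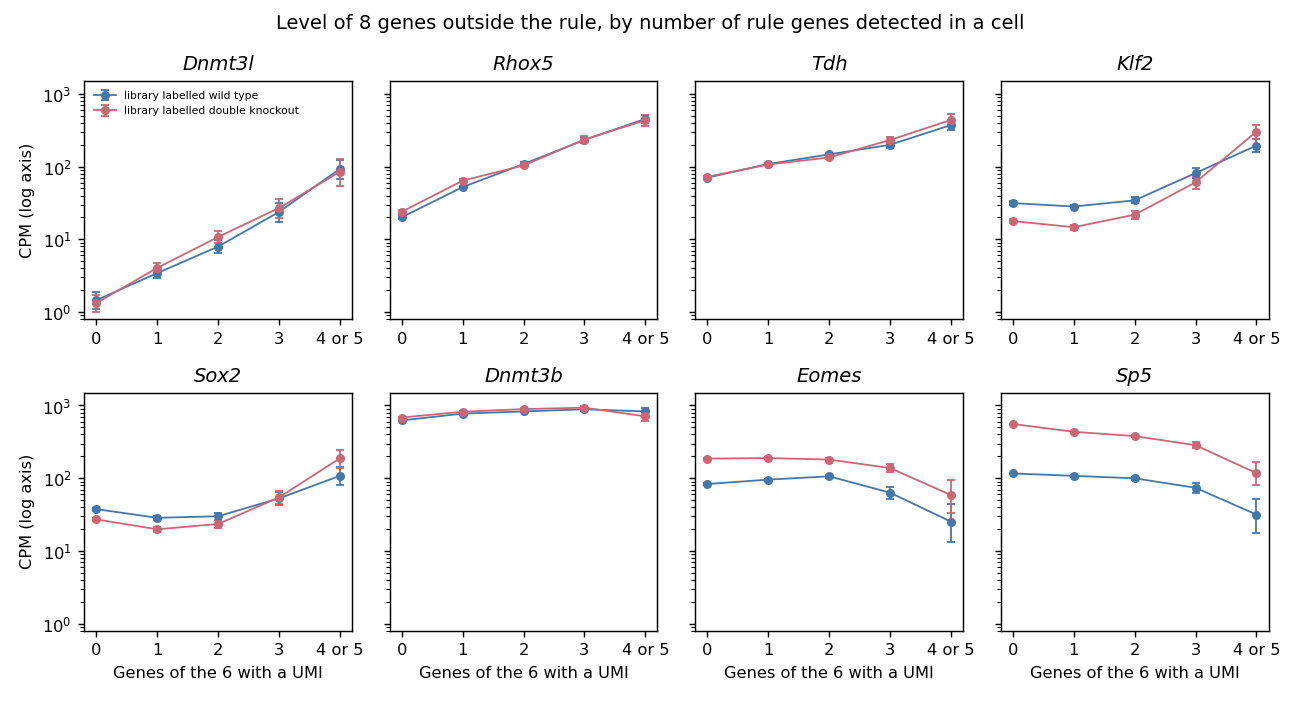
Levels of 8 genes outside the rule (CPM on a shared log axis, exact Poisson 95% intervals) in cells grouped by the number of rule genes with a UMI, in each library. Dnmt3l, Rhox5 and Tdh are higher at each further gene, Klf2 and Sox2 are higher with 3 genes than with 2 and highest in marker-positive cells, and Eomes and Sp5 are lowest in marker-positive cells.

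Marker-positive cells were not uniform, and a split by Klf2, made after the values were seen, is given as a description. The 22 cells with no Klf2 UMI had 1172 CPM of Dnmt3b, the 19 with 1 to 3 UMIs had 678 CPM, and the 20 with 4 or more had 382 CPM. Zfp42 ran the other way, at 93.1, 204 and 559 CPM, and Dppa3 stood at 114, 204 and 363 CPM. Otx2 was at 99.96, 117 and 32.6 CPM. Rhox5 showed no such order, at 383, 549 and 415 CPM. In the other kept cells the same split of Klf2 gave 755, 718 and 591 CPM of Dnmt3b. Both libraries were represented in each class, with 11, 12 and 11 cells labelled wild type and 11, 7 and 9 labelled double knockout. Pou3f1 did not follow the order of Dnmt3b, at 214, 41.6 and 74.5 CPM, with 26 of the 62 UMIs of the first class in 1 cell. Zfp42 and Dppa3 are genes of the rule, and their levels among cells chosen by them support nothing.

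Among the 61, 8 cells had no Dnmt3b UMI, 1 from the library labelled wild type and 7 from the library labelled double knockout, with a median of 6520 UMIs. They held 876 CPM of Klf2, 516 CPM of Zfp42 and 391 CPM of Dppa3. A single cell from the library labelled wild type, with 16430 UMIs, stood apart: it had 26 Krt8, 33 Krt18, 50 Phlda2, 14 Igf2 and 9 Krt7 UMIs, transcripts known from trophoblast. It carried 17 Rhox6 and 19 Rhox9 UMIs, 43.6% and 54.3% of all those in marker-positive cells, with no Dppa3 or Lncenc1. A further cell, from the library labelled double knockout, had 3 Prdm1, 4 Tfap2c and 1 Nanos3 UMIs beside 7 Dppa3 UMIs, a set known from primordial germ cells. Another cell of that library had 1 UMI each of Prdm1, Tfap2c and Nanos3 beside 6 Dppa3 UMIs. The keratin-rich cell lay in a cluster of 315 cells, 128 and 187 from the libraries, led by Rhox9, Rhox6, H19, Sct and Krt19, in which it was the 1 marker-positive cell.

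Markers of other cell types were checked as whole lists. Of 8 extraembryonic endoderm genes, 4 had no UMI in the 61 cells, Sox17, Dab2, Cubn and Pdgfra, and the summed list stood at 8.45 and 3.68 CPM against 13.3 and 12.3 CPM. Of 6 trophoblast genes, Elf5, Hand1, Plac1 and Tpbpa had none, and the 23.2 and 7.36 CPM of the list, against 2.00 and 1.57 CPM, came from Krt7 and Gata3, with 9 of 11 Krt7 UMIs in the keratin-rich cell. Neural genes were at 57.1 and 55.2 CPM against 209 and 129 CPM, with no UMI of Sox1 or Zic1. The 6 germ cell genes summed to 104 and 184 CPM against 32.5 and 33.1 CPM, of which Ifitm3 made up 74.0 and 69.9 CPM.

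**Figure D5:**
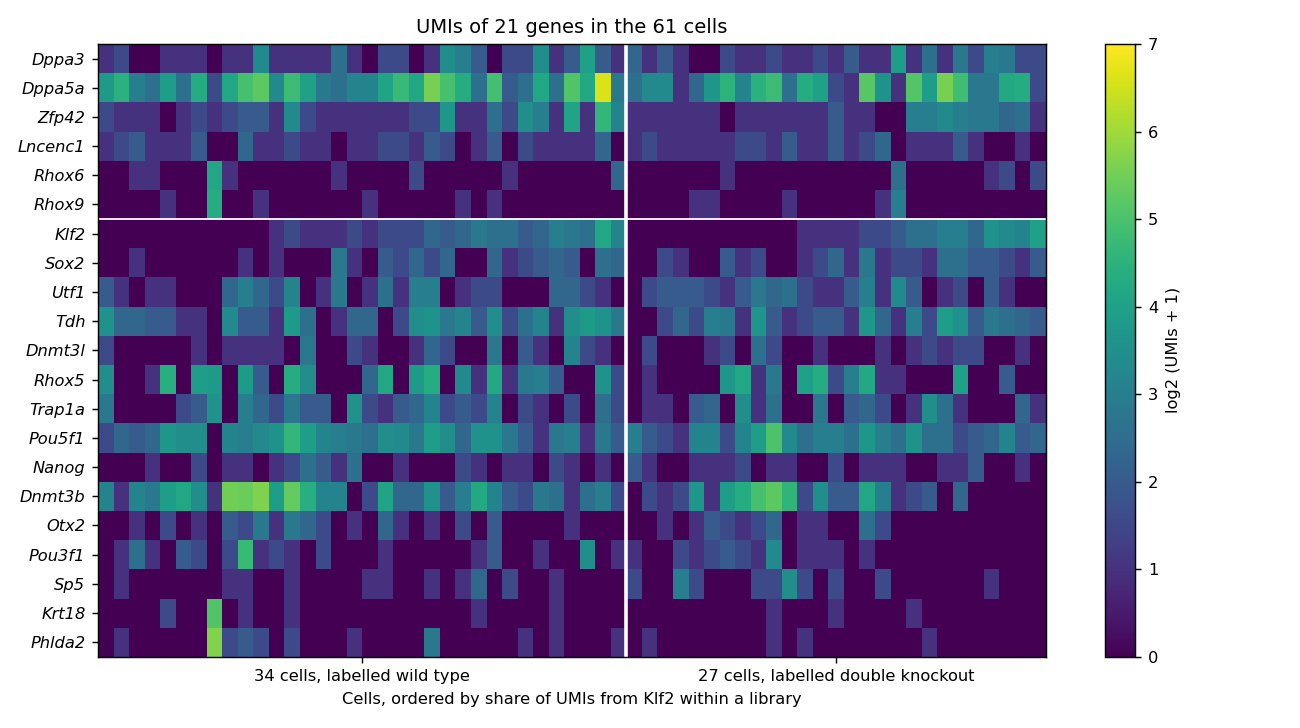
UMIs of 21 genes (log2 of UMIs + 1) in each of the 61 marker-positive cells, ordered within a library by the share of Klf2; the white line below the top 6 rows parts the rule genes from the rest. Cells rich in Klf2 at the right of each block hold more Zfp42 and less Dnmt3b, and 1 cell at the left is bright for Krt18, Phlda2, Rhox6 and Rhox9.

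Clustering without the 6 rule genes put 52 of the 61 into 1 of 11 clusters (29 of 34 and 23 of 27). That cluster held 995 cells, 5.16% of all kept cells, and also 145 of the 281 cells with exactly 3 rule genes. Among its leading genes were Dnmt3l, Hsf2bp, Inpp5d, Dnah8 and Rhox5 beside the rule genes. It was 4.86% and 5.403% of the libraries labelled wild type and double knockout, so the order of the libraries differed from that of the marker-positive share. Within that cluster alone, marker-positive cells were also set against its other cells. In both libraries 92 genes were 2-fold or more higher and 38 as far lower. How many genes were tested there is not given, so these counts cannot be compared with the shares over all kept cells. A gene rare in the other cells of the cluster could pass the filter only by being high in marker-positive cells.

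Mitochondrial UMIs were a median of 4.74% and 4.92% in marker-positive and 3.81% and 4.06% in other cells. Of the 61, 2 were among the cells with the highest doublet scores, against 605 and 896 of the other 8673 and 10560 cells. The share of UMIs from chromosomes 6 and 11 was low, at or below 0.8 of the median cell, in 3 and 1 of the 61 (4.92%, 1.03 to 13.7, and 1.64%, 0.0415 to 8.80), against 19.6% and 11.3% of the other cells of at least 4000 UMIs. A low share of the X chromosome was found in 5 of the 61 (8.20%, 2.72 to 18.1), 1 labelled wild type and 4 double knockout, against 0.827% of the others. These shares were taken over genes with at least 10 CPM over all kept cells together. Dppa3, Rhox6 and Rhox9, the rule genes on chromosomes 6 and X, were under that level and did not enter them. The part of these shares in the results was not tested.

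Between the libraries, few differences within marker-positive cells stood on more than a handful of UMIs. Of 7551 genes, 520 (6.89%) were 2-fold or more above and 427 (5.65%) as far below wild type in the library labelled double knockout, but only 95 (1.26%) and 123 (1.63%) also had a counting interval beyond no change. In the far deeper sums of the other cells, 2 (0.0265%) of the same genes were 2-fold higher and 2 (0.0265%) lower. Of the 218 with such an interval, 167 had the same direction in the other cells. The share of all 7551 genes with the same direction was not counted, so the 167 support nothing. Of the 218, 3 were also 2-fold apart in that direction in the other cells. In 13, more than 50% of the UMIs of the higher library came from 1 cell. The sums of 34 and 27 cells thus spread far more than the libraries as a whole.

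Sp5 had 15 and 32 UMIs, in 11 and 10 cells, a log2 ratio of double knockout over wild type of 1.87 (0.97 to 2.88) that was close to the 2.13 of the other cells. Sp8 had 5 and 1 UMIs and a log2 ratio of −1.08 (−7.09 to 1.64), against 0.95 in the other cells, so no difference was detectable at this depth. Grb10, an imprinted gene for an adaptor that restrains insulin signalling, had 32 and 3 UMIs, a log2 ratio of −2.42 (−4.97 to −0.94), and −2.72 in the other cells. The Sp5 ratio rested in part on few cells: 10 of the 32 UMIs came from 1 cell, and within the main cluster 8 and 11 UMIs gave 1.27 (−0.16 to 2.81), an interval that reached across 0. Outside these, the 10 highest ratios belonged to Sav1, Cep152, Ccdc14, Cpsf4l, Slc39a14, Prdm1, Zdhhc17, Efs, Cep97 and Setd4. Cep152, a centriole gene, had 1 and 10 UMIs in 1 and 9 cells and a log2 ratio of 3.61 (1.31 to 9.56), against −0.04 in the other cells. Sav1, the scaffold of the Hippo kinases, had 0 and 6 UMIs in marker-positive cells. That is 3.48-fold above a floor of 3 UMIs, and the exact interval of its log2 ratio began at 1.03.

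On the low side stood Washc3, Nrk, Igf2, Sik1, Col4a2, Mllt3, Wfdc2, Nup62cl, Jmy and Med18. Washc3, a part of the endosomal WASH complex, had 15 UMIs in 11 cells and none. With a floor of 3 UMIs it was 2.87-fold lower, and the exact interval of its log2 ratio ended at −1.04. Nrk had 44 and 1 UMIs, 88.9% of them in 1 cell, and all 14 Igf2 UMIs came from the keratin-rich cell. Mllt3, of the super elongation complex, had 12 UMIs in 10 cells and none. With that floor it was 2.30-fold lower, and its interval ended at −0.675. In the other cells the log2 ratios of these genes lay between −0.30 and 0.29. Differences at this level in 61 cells from 2 libraries are values of these libraries, with no replicate behind them.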

How the data were processed

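Day 2.5 gastruloids were profiled by droplet single-cell RNA-seq (10x Genomics 3′ v3.1), with 1 library per genotype. The authors deposited a matrix of raw UMI counts per gene and barcode for each library. Cell Ranger 8.0.1 is named in the labels' protocols. The submitters' processing notes name STAR 2.7.9a, STARsolo, Seurat 5.1.0 and mm10. Each matrix lists 6794880 barcodes and 32285 genes. Barcodes with at least 2500 UMIs, at least 1000 genes and at most 10% mitochondrial UMIs were kept (8707 and 10587). The labels give 9238 and 11190 cells, with medians of 5333 and 5398 genes. The kept cells had medians of 3275 and 2884 genes.

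Counts were summed per library over marker-positive and other kept cells and divided by the summed UMIs (CPM). Log2 ratios used a pseudocount of 0.5 UMI, and counts of genes a mean of at least 10 CPM over the 4 sums. With 1 library per genotype there was no test and no p-value. The members and the gene lists were chosen with earlier results of these data known. Named were the rule genes, Sp5, Sp8, the 15 highest and 15 lowest genes by the smaller of the 2 libraries' log2 ratios with the same sign, the 10 genes at each end of the difference between libraries (both among genes of 10 CPM, without mitochondrial, ribosomal, clone-named and pseudogenes) and the listed genes. Doublets were scored with Scrublet and marked at 0.8% per 1000 cells, but not removed. Cells were clustered in scanpy 1.11.5 (2000 variable genes, 30 components, 15 neighbours, Leiden resolution 1) without the rule genes, Sp5, Sp8, mitochondrial, ribosomal, Y-linked genes and Xist. Sums used numpy 2.4.6 and intervals scipy 1.17.1. The scripts were tested on simulated counts. Alternatives changed the number of rule genes, depth, mitochondrial limit, scaling, expression filter and comparison cells.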

Additional observations from a re-analysis of the deposited data

How the results depend on the processing

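Of 116 values computed under 13 alternative settings, 76 stayed within their counting interval or within 1.5 times the main count, 39 moved and 1 reversed. The settings without the keratin-rich cell, without cells low in chromosome 6 or 11, within the main cluster and at 10 CPM in the other cells were chosen after seeing the data. No paired analysis was possible because each genotype has 1 library, and no replicate could be left out. The marker-positive shares of 0.390% and 0.255% became 1.92% and 1.65% when 3 of the 6 genes were enough, 0.0115% and 0.00945% when 5 were needed, 0.0230% and 0.0472% with cells thinned to 2500 UMIs, 0.260% and 0.160% with at most 5% mitochondrial UMIs, and 6.86% and 4.02% within the main cluster. The thinned log2 ratio of the shares was 1.04. The 203 higher genes became 74 with 3 of 6 genes, 1556 with thinning, 1124 at 1 CPM, 92 at 10 CPM in the other cells and 92 within the cluster. The 87 lower genes became 9, 141, 264, 131 and 38 under the same settings and 165 with median-of-ratios scaling. Between libraries, the 520 higher and 427 lower genes became 22 and 41 with 3 of 6 genes, 1375 and 2216 with thinning and 1859 and 1474 at 1 CPM. The main counts are of 7625 genes (7551 between libraries), and those at 10 CPM in the other cells of 7479. The number tested changed with the setting and is not given for all of them, so these counts cannot be compared as shares. The median of the naive factors, 2.81, was 1.69 with 3 of 6 genes and 4.47 with thinning. It was 2.10 over genes with a mean of 10 CPM over the 4 sums and 1.49 within the cluster. The formative median was −1.26 with thinning. The streak median of −0.71 was −0.13 with 3 of 6 genes, −0.0503 with thinning, −0.54 at 5% mitochondrial UMIs, −0.88 with median-of-ratios scaling, −0.49 without cells low in chromosome 6 or 11 and −0.998 within the cluster. The log2 ratio of Sp5 between libraries, 1.87, reversed to −1.19 with thinning and was 1.27 within the cluster, where its interval reached across 0. Thinned values rest on 7 cells, the cause of the other shifts was not tested, and with 5 of 6 genes 1 cell per library left no gene values. With 61 cells, a gene with under 10 CPM in them rests on a few UMIs, and differences between genotypes have no replicate.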

Other observations

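The genes below were picked after their values were seen, and no list or test stands behind them. Of the 141 genes higher in both libraries with intervals beyond no change, 5 were zinc-finger genes of 1 stretch of chromosome 4 (145510759 to 147642513 in mm10, 2.13 Mb with 19 protein-coding genes). Zfp981 had log2 ratios of 3.21 and 4.67, Zfp985 of 2.19 and 2.34, Zfp982 of 2.07 and 1.77, Zfp990 of 1.30 and 1.40 and Zfp979 of 1.98 and 1.23. These genes are close copies of each other, and how reads were split among them is uncertain. Also among the 141 were single genes with known roles in the interferon response or antigen presentation, and how many such genes did not pass was not counted. Ifitm1 had log2 ratios of 2.79 and 3.17, Irf1 of 2.24 and 1.89, Pml of 2.15 and 1.71, Trim25 of 2.08 and 2.88, and Tapbp of 1.94 and 2.17.

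Fibronectin (Fn1) was higher as well, with log2 ratios of 1.88 and 2.40, within an adhesion list of which 1 of 9 genes with 10 CPM in the other cells was 2-fold or more higher in both libraries and none lower. Of 12 imprinted genes at that level, Peg10 (2.00 and 1.67) and Mest (1.17 and 1.39) were higher and Nnat (−1.80 and −1.03) lower, and the median log2 ratio of the 18 listed was 0.25.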
